A study of Mus musculus with 6 samples.

Results

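Metalloproteinases that remodel the extracellular matrix, and the tissue inhibitors that hold them in check, were followed in mouse primary white adipocytes that received either mimic control or a mimic of miR-182-5p. The genes were taken by symbol: the matrix metalloproteinases (Mmp followed by a number), the membrane-anchored Adam proteases, the secreted Adamts proteases, the Adamts-like proteins (Adamtsl) and the Timp inhibitors. This rule took 83 of the 22609 symbols counted, namely 23 MMP, 32 ADAM, 19 ADAMTS, 5 ADAMTS-like and 4 TIMP genes. Enough reads for a test were present for 46 of them, and 37 fell short.

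The cells came from the stromal vascular fraction of inguinal fat of male C57BL6 mice aged 3 weeks per the labels, and were differentiated into adipocytes in culture. The control group held 3 samples labelled as control vector, and the mimic group 3 samples labelled miR182. The labels name electroporation as the delivery route, whereas the paper's methods name a lipid reagent and another mouse age. Nothing in the labels or the methods says whether the 3 samples of a group were separate cultures or animals, so p-values measure only the spread between these samples, which may be technical. Between 25869810 and 26484794 reads fell on genes in the control samples, and between 25960631 and 28796712 in the mimic samples. In a principal component analysis the second component, with 11.8% of the variance, set mimic sample 1 apart from mimic samples 2 and 3 (scores -13.14 against 7.605 and 7.353) and control sample 1 apart from control samples 2 and 3 (8.294 against -4.806 and -5.309).

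MMPs, ADAMs and ADAMTSs are zinc-dependent proteases made as inactive precursors. MMPs cut collagens and other matrix proteins, ADAMs release the outer part of membrane proteins such as growth factors and receptors, and ADAMTSs process proteoglycans and procollagens. ADAMTS-like proteins keep the matrix-binding part of an ADAMTS but no protease domain, and several bind fibrillin microfibrils. TIMPs block the active site. In fat, MMP14 and MMP2 act on the pericellular collagen that surrounds differentiating adipocytes, which must be reshaped as the cells fill with lipid.

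The cells were checked against marker genes, and this may bear on all fold changes that follow. The marker counts here are at an adjusted p under 0.05, which 46.7% of all genes tested passed (23.2% up, 23.5% down). Of 12 adipocyte markers, 10 fell and 1 rose. Their summed level ranged from 14200 to 15000 CPM (read counts scaled to the same number of reads per sample) in control samples and from 9810 to 11000 in mimic samples. Adipoq, the adipocyte hormone adiponectin, read 933, 946 and 906 CPM with control and 616, 683 and 727 CPM with mimic. Of 9 stromal progenitor or fibroblast markers tested, 8 fell and 1 rose, with sums of 3460 to 3540 against 2690 to 2780 CPM, and the progenitor receptor Pdgfra went from 445, 448 and 455 CPM to 256, 246 and 241 CPM. Smooth muscle or pericyte markers summed to 4140 to 4330 CPM with control and 4850 to 5230 CPM with mimic, and 3 of 5 rose. Leukocyte markers summed to 12.8 to 14.5 and 11.7 to 14.4 CPM, where 1 of 3 tested (Lyz2) fell and the pan-leukocyte gene Ptprc had 0, 0 and 3 reads with control and 4, 3 and 0 with mimic. Endothelial markers summed to 8.13 to 9.27 and 5.09 to 5.74 CPM, 1 of 3 tested (Tek) fell, the endothelial adhesion gene Pecam1 stayed between 0.115 and 0.39 CPM, and Cldn5 was at 0. Skeletal muscle markers summed to 19.4 to 19.5 and 29.1 to 33.6 CPM, where 1 of 2 tested (Acta1) rose and Ckm and Myh4 were at 0. The part of these cell markers in the fold changes of the proteases was not tested. In bulk RNA, fewer cells of a type and less RNA per cell cannot be told apart.

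A miRNA pairs through its seed (bases 2 to 8) with complementary sites in 3′-UTRs. The labels name the mimic only as miR182. The methods name the transfected reagent as a miR-182-5p mimic and give no sequence for it. In their section on PCR they print, under the name of miR-182-5p, a sequence other than RefSeq's. Which sequence was transfected is thus not known from the sources used here. The sites below are those of RefSeq's miR-182-5p. RefSeq places mature miR-182-5p at chr6:30165962-30165986 of GRCm38.p6, on the minus strand. Its 25 bases are shown because the sites are read from them, with the seed in capitals.
miR-182-5p: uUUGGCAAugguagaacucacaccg
The matching 7-base site is TTGCCAA. It occurred in the longest annotated 3′-UTR of 7 of the 46 members tested (15.2%), against 1569 of the 12523 genes tested that have such a UTR (12.5%). All 7 are shown, each with its site in capitals and 23 bases in all, at GRCm38 positions and 5′ to 3′ on the gene's own strand.
Adam22, chr5:8077984-8078006, minus strand: ataagtgtatttTTGCCAAatgc
Adam23, chr1:63595707-63595729, plus strand: agctatggagttTTGCCAAgtga
Adam9, chr8:24950473-24950495, minus strand: taggaagactaaTTGCCAAtaac
Adam10, chr9:70778509-70778531, plus strand: tggatacatcacTTGCCAAtgta
Timp3, chr10:86346729-86346751, plus strand: ttggctggaagcTTGCCAActgt
Mmp16, chr4:18117421-18117443, plus strand: cgatgatgtgacTTGCCAAaact
Mmp17, chr5:129610041-129610063, plus strand: cttgggatcagtTTGCCAActtg
In Adam22 and Mmp16 the site is followed by an A, which makes the 8-base site TTGCCAAA, present in 4.35% of the members tested and 5.24% of all genes. A match is a description of the letters and not a measured binding site.

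Among the 46 members tested, 9 passed both cutoffs (adjusted p under 0.05 in edgeR's quasi-likelihood test, Benjamini-Hochberg adjusted over 13117 genes, and at least a 1.5-fold change), which is 19.6%, against a background of 7.45% of all genes tested. Of these 9, 3 were higher with mimic (background 1.97% for higher) and 6 were lower (background 5.48% for lower). The lower members were Adam22, Mmp3, Adamts15, Timp4, Mmp2 and Mmp11, and the higher ones Adamtsl3, Mmp15 and Adamts6. In what follows, called means past both cutoffs, and rose or fell means past the adjusted p alone. By adjusted p alone 31 members changed, 11 up (background 23.2%) and 20 down (background 23.5%), where 46.7% of all genes tested changed. The 3 mimic samples did not overlap the 3 controls in 29 members (63.0%), against 54.8% of all genes tested. The median log2 fold change was -0.16 over the members and -0.0043 over all genes tested. Here and below, log2 fold changes are mimic over control with their standard error (SE), and levels are CPM with 3 samples per group.

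**Figure D1:**
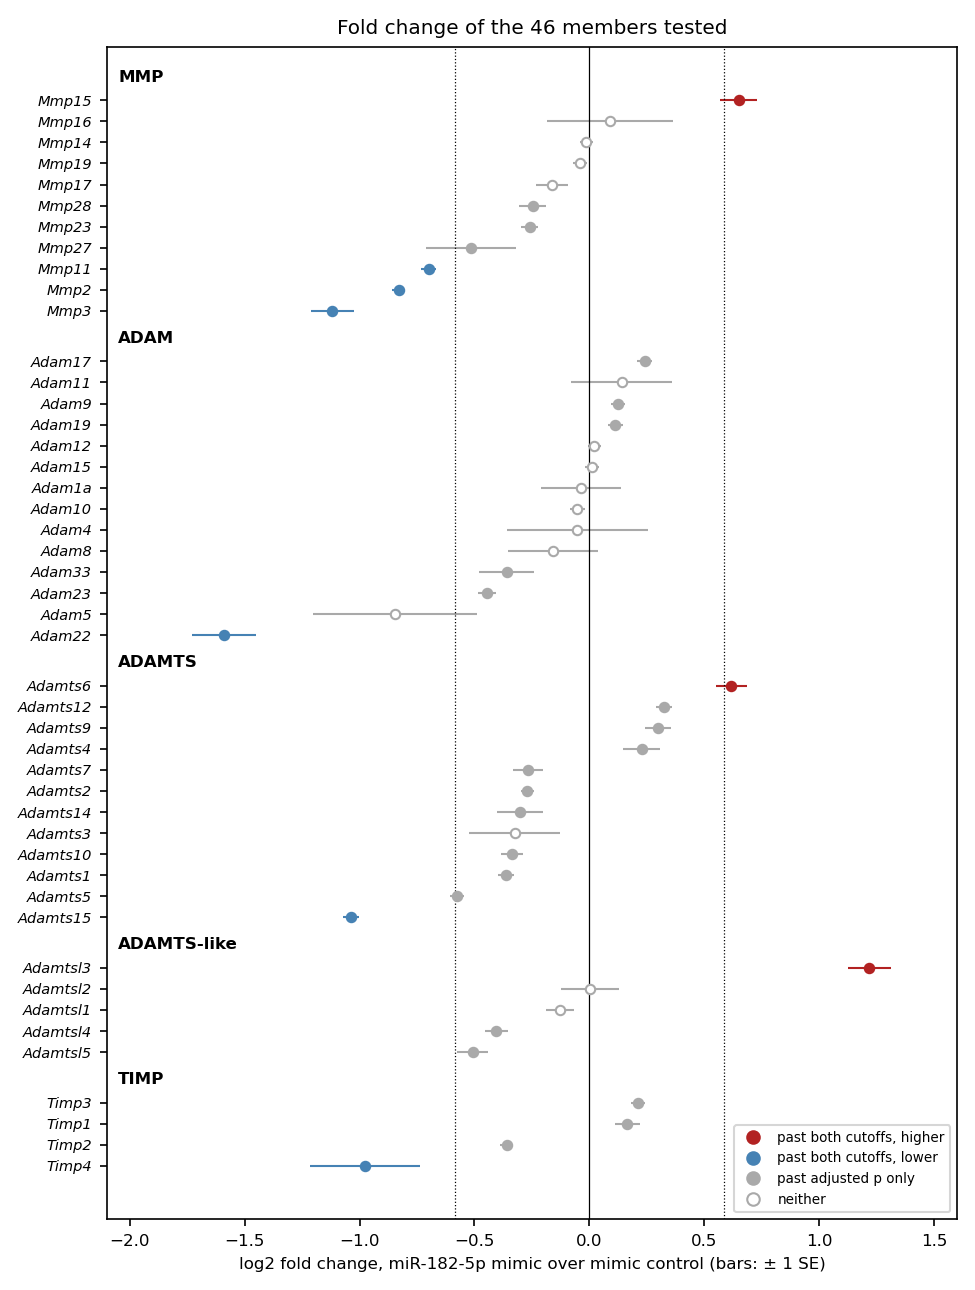
Log2 fold change (mimic over control, horizontal axis) with 1 SE on each side for each of the 46 members tested, grouped by family; dotted lines mark a 1.5-fold change and open circles did not pass the adjusted p. The 6 blue members lie to the left of the lower line and the 3 red ones to the right of the upper line, while the unfilled Adam5 lies past the line with a wide bar.

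Of the 37 members not tested, 13 had no read in any sample and 24 had at least 1, and the highest count in any sample was 15, for the collagenase Mmp13. They comprise 18 ADAM, 12 MMP and 7 ADAMTS genes. None of the MMPs grouped here as collagenases (Mmp1a, Mmp1b, Mmp8, Mmp13) could be tested. Mmp14, a collagenase at the cell surface described below, was tested. Mmp9, the gelatinase of leukocytes and other motile cells, had 5, 5 and 9 reads with control and 13, 12 and 7 with mimic. Of the 46 tested, 10 had under 100 reads in every sample, and their fold changes carry SEs of 0.12 to 0.36.

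Compared per length of exon, the most abundant members in control cells were inhibitors and a few proteases. The length here and below is that of all annotated exons of a gene joined, such as 8144 bases for Timp3 and 3896 for Timp2. The length of the transcript expressed in these cells was not measured and can be shorter, so the order between genes depends on this divisor. Timp1 stood at 469 ± 18.9 CPM per kb (SD, n = 3), Timp2 at 235 ± 0.196, Mmp2 at 211 ± 4.40, Timp3 at 184 ± 2.45, Mmp11 at 116 ± 3.6, Adam9 at 104 ± 0.443, Mmp14 at 95.7 ± 2.16 and Adamts2 at 87.1 ± 1.74. With mimic the order changed: Timp1 stayed first at 526 ± 55.2 CPM per kb, and Timp3 (213 ± 6.47) came before Timp2 (183 ± 4.47), Mmp2 (119 ± 3.18) and Adam9 (113 ± 3.76). In that order Mmp2 and Adam9 differed by less than the sum of their SDs, whereas Timp3 and Timp2 differed by more. Summed over the family, MMPs went from 514 ± 11.3 to 360 ± 4.28 CPM per kb and ADAMTSs from 207 ± 1.15 to 172 ± 4.36. ADAMs went from 257 ± 3.17 to 269 ± 3.09, ADAMTS-like genes from 18.5 ± 0.631 to 15.9 ± 0.437, and TIMPs from 888 ± 21.4 to 922 ± 65.7. Thus the summed level was lower in all 3 mimic samples for MMPs, ADAMTSs and ADAMTS-like genes, higher in all 3 for ADAMs, and overlapped for TIMPs. Such sums are weighted to the abundant genes. In the MMP sum Mmp2 went from 211 to 119 and Mmp11 from 116 to 71.4 CPM per kb, and in the ADAM sum Adam9 went from 104 to 113.

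**Figure D2:**
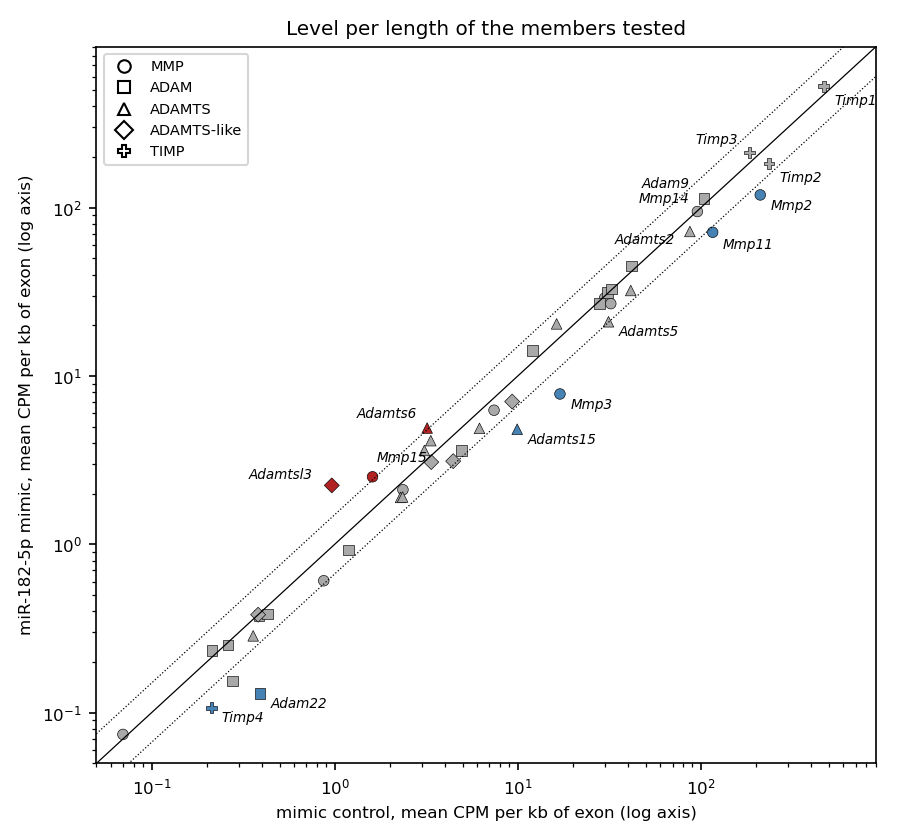
Mean level per length (CPM per kb of exon, log axes) of each tested member with mimic control (horizontal) and miR-182-5p mimic (vertical); the solid line marks equal levels, the dotted lines a 1.5-fold difference, blue and red the called members and the marker shape the family. Mmp2 and Mmp11 are called at the abundant end of the plot and Adam22 and Timp4 at the sparse end.

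Among the MMPs, 11 were tested, of which 4 were called (3 lower, 1 higher), or 36.4% beside 7.45% of all genes tested. By adjusted p 6 fell and 1 rose, or 63.6% beside 46.7% of all genes, and the median log2 fold change was -0.25. Mmp2, the gelatinase that cuts denatured and basement membrane collagens, read 726, 711 and 696 CPM with control and 388, 404 and 408 CPM with mimic. All mimic samples lay far below all controls. The log2 fold change was -0.83 (SE 0.030, adjusted p = 5.11e-11), a level that fell by 43.8%. Both stromelysins tested fell. Mmp11, a stromelysin known from fibroblasts next to tumours and activated inside the cell by furin, went from 334, 317 and 316 CPM to 192, 200 and 202 CPM (log2 fold change -0.70, SE 0.032, adjusted p = 5.65e-10). Mmp3, which cuts proteoglycans and other matrix proteins and activates other MMPs, had 31.9, 29.1 and 30.8 CPM with control. With mimic it had 16.8, 13.5 and 11.9 CPM, so that mimic sample 1 was the highest of its group but still below every control (log2 fold change -1.12, SE 0.093, adjusted p = 3.17e-07).

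The membrane-type MMPs had 1 call among 4 tested (25.0%, beside 7.45% of all genes). Mmp14, the collagenase at the cell surface that activates pro-MMP2 with the help of TIMP2, read 585, 563 and 562 CPM with control and 561, 569 and 564 CPM with mimic. The groups overlapped, and the log2 fold change was -0.01 (SE 0.028, adjusted p = 0.716). Mmp15, a close relative of Mmp14, was called higher, with 9.15, 8.0 and 8.89 CPM in control and 14.1, 14.3 and 12.4 CPM in mimic samples (log2 fold change 0.65, SE 0.082, adjusted p = 1.9e-05). Mmp15 is a low-level gene here, at 1.61 CPM per kb in control cells beside 95.7 for Mmp14. Mmp16 (14 to 22 reads, log2 fold change 0.09, SE 0.28, adjusted p = 0.813) and the lipid-anchored Mmp17 (log2 fold change -0.16, SE 0.070, adjusted p = 0.0712), both with a 7-base site, did not pass the test.

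Of the other MMPs, Mmp23, which lacks the hemopexin domain of most MMPs, fell from 75.4 ± 2.05 to 63.0 ± 0.56 CPM (log2 fold change -0.26, adjusted p = 3.71e-05). Epilysin, Mmp28, fell from 28.8 ± 2.08 to 24.2 ± 0.076 CPM (log2 fold change -0.25, adjusted p = 0.00325). Neither reached 1.5-fold. Mmp19 had a log2 fold change of -0.04 (SE 0.031, adjusted p = 0.323) with overlapping groups. The fall of Mmp27 (38, 53 and 59 reads against 42, 31 and 40, log2 fold change -0.52, adjusted p = 0.0441) did not hold when any library other than control sample 1 was left out (adjusted p from 0.0546 without mimic sample 1 to 0.182 without control sample 3), and without control sample 1 it was called (log2 fold change -0.67, adjusted p = 0.0163). It also missed the cutoff in DESeq2 (adjusted p = 0.147), in limma-voom (0.061), with the replicate block (0.0641) and without a filter on low counts (0.0512). Exons of Mmp19, Mmp28 and Mmp11 share 1001, 466 and 155 bases with genes on the opposite strand, and whether counting used the strand is not given in the sources used here.

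**Figure D3:**
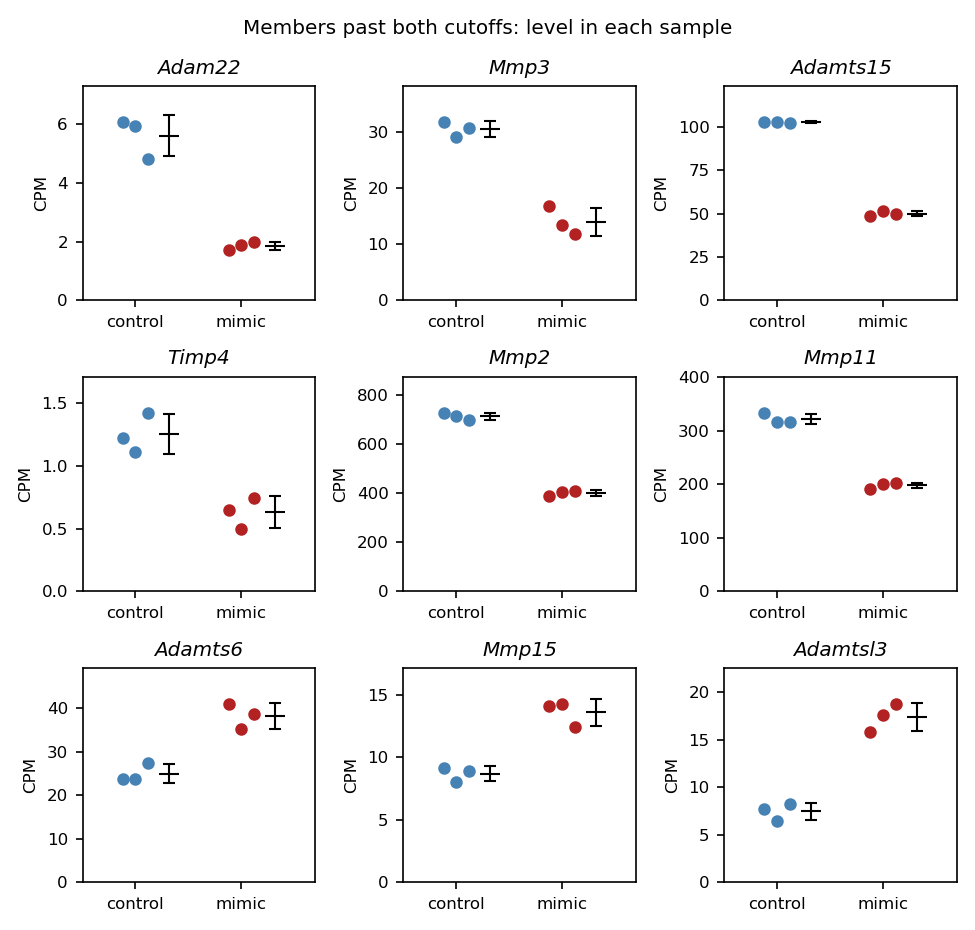
CPM in each control (blue) and mimic (red) sample for the 9 called members, each panel with its own vertical axis from 0; the bar beside each group is the mean with 1 SD. In every panel the 3 mimic samples lie on one side of the 3 control samples, below them in 6 panels and above them in 3.

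The ADAM family as a whole moved little in level, with 1 call among 14 tested (7.14%, beside the 7.45% of all genes). By adjusted p 3 members rose and 3 fell (42.9%, beside 46.7% of all genes), and the median log2 fold change was -0.04. The call was Adam22, one of the ADAMs without a working protease site, known in the brain as a receptor for the secreted protein LGI1. It had 155, 155 and 126 reads with control and 50, 50 and 56 with mimic. The level fell by 66.8%, the largest fall among the 46 members tested (5.62 ± 0.688 to 1.86 ± 0.138 CPM, log2 fold change -1.59, SE 0.14, adjusted p = 5.19e-07). The site printed above lies at base 692 of its 6334-base 3′-UTR. Per length it was among the least abundant members tested, at 0.391 CPM per kb in control cells.

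Adam23, also without a working protease site and also a binder of LGI1, fell from 90.3, 83.6 and 90.5 CPM to 65.4, 65.7 and 63.2 CPM. The groups did not overlap, but the change was short of 1.5-fold (log2 fold change -0.44, SE 0.039, adjusted p = 5.15e-07). Adam11, the remaining member of this type, had 27 to 48 reads and a log2 fold change of 0.14 (SE 0.22, adjusted p = 0.629).

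The ADAMs that act as sheddases had no call among 8 tested, beside 7.45% of all genes, and a median log2 fold change of 0.02. By adjusted p 3 rose and 1 fell (50.0%, beside 46.7% of all genes). Adam17, which releases TNF and several ligands of the EGF receptor, rose from 87.9, 86.2 and 84.4 CPM to 101, 104 and 100 CPM (log2 fold change 0.24, SE 0.032, adjusted p = 3.13e-05). Adam9, the most abundant ADAM per length, rose from 426 ± 1.82 to 464 ± 15.5 CPM (log2 fold change 0.12, SE 0.030, adjusted p = 0.00357). Adam19, a sheddase of neuregulin, rose from 297 ± 13.3 to 321 ± 3.5 CPM (log2 fold change 0.11, adjusted p = 0.0114), though without control sample 2 its adjusted p was 0.0597. These increases are small, from 8.17% to 18.2%, and in each the 3 mimic samples lay above the 3 controls. Over all 8 sheddases tested the groups did not overlap in 50.0%, beside 54.8% of all genes tested.

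Adam10, which cuts Notch receptors among many others, had 137 ± 4.97 CPM with control and 132 ± 2.06 CPM with mimic (log2 fold change -0.05, adjusted p = 0.204). Adam12, studied for its part in adipocyte formation, had 327 ± 6.36 and 331 ± 5.93 CPM (log2 fold change 0.02, adjusted p = 0.582), and Adam15 had 200 ± 5.45 and 202 ± 1.35 CPM (log2 fold change 0.01, adjusted p = 0.768). For these genes the SE was 0.032 or less on the log2 scale. Adam33 fell from 6.42 ± 0.814 to 4.99 ± 0.536 CPM (log2 fold change -0.36, adjusted p = 0.0225), but not without control sample 1 (adjusted p = 0.123), without mimic sample 2 (adjusted p = 0.094) or in DESeq2 (adjusted p = 0.0589). Adam8, best known from leukocytes, had 40 to 63 reads and a log2 fold change of -0.16 (SE 0.20, adjusted p = 0.541). Exons of Adam15, Adam19 and Adam17 share 1263, 1067 and 311 bases with genes on the opposite strand.

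The ADAMs of the reproductive tract were mostly silent, with 3 of 20 tested. Adam1a and Adam4 had log2 fold changes of -0.04 (SE 0.17) and -0.05 (SE 0.31). Exons of Adam1a share 6584 bases with genes on the same strand (Gm42878 and Mapkapk5) and 848 with Tmem116 on the opposite strand, so its reads are uncertain. Adam5 had 33, 18 and 16 reads with control and 13, 18 and 9 with mimic (log2 fold change -0.85, SE 0.36, adjusted p = 0.0671). It was called without control sample 3 (-1.04, adjusted p = 0.0425) and without mimic sample 2 (-1.16, adjusted p = 0.0381).

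In the ADAMTS family 11 of 12 tested members changed by adjusted p (91.7%, beside 46.7% of all genes tested), 4 up and 7 down. Of the 12, 2 were called (16.7%, beside 7.45% of all genes), 1 in each direction. The proteoglycan-cutting members, which process versican and aggrecan, were split. Adamts15 went from 103, 103 and 102 CPM to 48.6, 51.7 and 50.0 CPM, a tight separation (log2 fold change -1.04, SE 0.035, adjusted p = 2.33e-11). Adamts5, an aggrecanase, fell from 333, 346 and 333 CPM to 219, 230 and 231 CPM. Its log2 fold change of -0.575 (SE 0.030, adjusted p = 2.9e-09) lay just short of the 1.5-fold cutoff (0.585 on the log2 scale), which it passed with upper-quartile scaling (-0.587) and without mimic sample 3 (-0.585).

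Adamts1, a versican-cutting protease induced in ovulation and in inflammation, fell from 215, 228 and 216 CPM to 164, 172 and 177 CPM (log2 fold change -0.36, SE 0.035, adjusted p = 1.32e-06). The groups did not overlap. In the other direction, Adamts9 rose from 50.5 ± 2.92 to 62.1 ± 5.08 CPM (log2 fold change 0.30, SE 0.058, adjusted p = 0.000725), and 1805 of its exon bases are shared with genes on the opposite strand. Adamts4 rose from 14.9 ± 0.687 to 17.4 ± 1.90 CPM (log2 fold change 0.23, adjusted p = 0.0298) with overlapping groups. It did not pass without control samples 2 or 3 or mimic samples 2 or 3 (adjusted p from 0.0539 to 0.138).

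The procollagen N-proteinases, which trim the amino-terminal propeptide of fibrillar procollagens, had no call among 3 tested, beside 7.45% of all genes. Adamts2, the most abundant ADAMTS gene per length, fell from 830, 799 and 809 CPM to 658, 680 and 684 CPM. The log2 fold change was -0.27 (SE 0.029, adjusted p = 4.41e-06), without overlap. Adamts14 fell from 12.2 ± 0.986 to 9.93 ± 1.48 CPM (log2 fold change -0.30, adjusted p = 0.0249) with overlapping groups, and did not pass without control sample 1 (adjusted p = 0.07), control sample 3 (adjusted p = 0.104) or mimic sample 3 (adjusted p = 0.115). Adamts3 had 39 to 64 reads and a log2 fold change of -0.32 (SE 0.20, adjusted p = 0.201). The type I procollagen gene Col1a1, whose product such enzymes trim, read 19900, 18800 and 19000 CPM with control and 18900, 18200 and 18800 CPM with mimic (log2 fold change -0.05, SE 0.040, adjusted p = 0.378). Of the other fibrillar procollagens listed, Col3a1 fell from 20100, 19800 and 19200 CPM to 15500, 15600 and 16200 CPM (log2 fold change -0.32, SE 0.039, adjusted p = 1.23e-05), and Col1a2 from 15500, 15200 and 15100 CPM to 14100, 14000 and 14300 CPM (log2 fold change -0.11, SE 0.036, adjusted p = 0.0225). The change of Col1a2 did not pass when any 1 control sample was left out (adjusted p from 0.0636 to 0.0699), without mimic sample 2 (adjusted p = 0.113) or with the replicate block (adjusted p = 0.13). Both genes are named after their values were seen.

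Adamts6 and Adamts10, a homologous pair that binds fibrillin microfibrils, had fold changes of opposite sign. Adamts6 went from 23.7, 23.7 and 27.4 CPM to 41.0, 35.1 and 38.7 CPM (log2 fold change 0.62, SE 0.069, adjusted p = 5.42e-06). It stayed past the adjusted p but slipped under 1.5-fold without control sample 1 (0.583), control sample 2 (0.583) or mimic sample 1 (0.568). Adamts10 fell from 52.1, 51.2 and 49.8 CPM to 38.8, 42.7 and 39.7 CPM (log2 fold change -0.34, SE 0.047, adjusted p = 4.13e-05). A second homologous pair, Adamts7 and Adamts12, which cut cartilage oligomeric matrix protein, also had opposite signs. Adamts12 rose from 178 ± 8.90 to 223 ± 4.26 CPM (log2 fold change 0.33, adjusted p = 4.22e-06), and Adamts7 fell from 14.4 ± 0.440 to 11.96 ± 0.413 CPM (log2 fold change -0.27, adjusted p = 0.00426). None of these 4 genes had overlapping groups, as was true of 54.8% of all genes tested.

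Of the 5 ADAMTS-like genes, 1 rose and 2 fell (60.0%, beside 46.7% of all genes tested). Adamtsl3, also named punctin-2, was the member that rose most among the 46 tested. It read 7.74, 6.47 and 8.20 CPM with control and 15.8, 17.6 and 18.8 CPM with mimic, without overlap (log2 fold change 1.22, SE 0.094, adjusted p = 1.42e-07). Adamtsl4, a fibrillin-binding protein of the lens zonule, fell from 39.1 ± 1.2 to 29.6 ± 0.943 CPM (log2 fold change -0.40, adjusted p = 1.13e-05). Adamtsl5 fell from 21.0 ± 1.58 to 14.8 ± 0.45 CPM (log2 fold change -0.51, SE 0.067, adjusted p = 2.63e-05). Adamtsl1 (log2 fold change -0.13, SE 0.062, adjusted p = 0.107) passed only without control sample 2 (adjusted p = 0.0169), and Adamtsl2 had a log2 fold change of 0.002 (SE 0.12).

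The 4 inhibitors split evenly, with 2 that rose and 2 that fell (100%, beside 46.7% of all genes tested). Timp2, which both inhibits MMP2 and forms the bridge to MMP14 on which pro-MMP2 is activated, fell from 916, 915 and 916 CPM to 729, 717 and 695 CPM. Its mimic samples lay below all controls (log2 fold change -0.36, SE 0.029, adjusted p = 1.98e-07). Timp3, bound to the matrix and an inhibitor of ADAM17 and of ADAMTS4 and ADAMTS5 besides MMPs, rose from 1480, 1480 and 1520 CPM to 1790, 1720 and 1690 CPM. The groups did not overlap (log2 fold change 0.21, SE 0.032, adjusted p = 8.02e-05), and 1733 exon bases of Timp3 are shared with a gene on the opposite strand.

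Timp1 read 413, 401 and 434 CPM with control and 522, 452 and 428 CPM with mimic, where mimic sample 1 was far above the others and mimic sample 3 lay within the control range. The log2 fold change of 0.17 (SE 0.056, adjusted p = 0.0259) dropped to 0.08 without mimic sample 1 (adjusted p = 0.0724), and the gene did not pass without control sample 1 (adjusted p = 0.0802), control sample 2 (adjusted p = 0.111) or in DESeq2 (adjusted p = 0.141). Timp4, an inhibitor found mainly in heart and fat, was the only TIMP called. It had 31, 29 and 37 reads with control and 19, 13 and 21 with mimic, without overlap (log2 fold change -0.98, SE 0.24, adjusted p = 0.0038). At these counts the error is wide, and Timp4 was far below the other TIMPs per length (0.212 CPM per kb in control cells).

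Proteases and their inhibitors act against each other, so 3 ratios of CPM per kb were taken within each sample, chosen after the fold changes were known. Mmp2 to Timp2 was 0.915, 0.899 and 0.878 with control and 0.615, 0.651 and 0.679 with mimic. Mmp2 to its activator Mmp14 was 2.19, 2.23 and 2.19 with control and 1.22, 1.25 and 1.28 with mimic. Adamts5 to its inhibitor Timp3 was 0.170, 0.176 and 0.166 with control and 0.0924, 0.101 and 0.103 with mimic. Each pairs a protease that fell with a gene that fell less, rose or did not pass, so the choice of pairs fixed the direction and the ratios are a description with no test. Other pairs moved the other way: Mmp14 (log2 fold change -0.01) to Timp2 (-0.36), and Mmp2 (-0.83) to Reck (-1.55), the inhibitor described below. These are ratios of RNA levels and not of protein or activity.

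**Figure D4:**
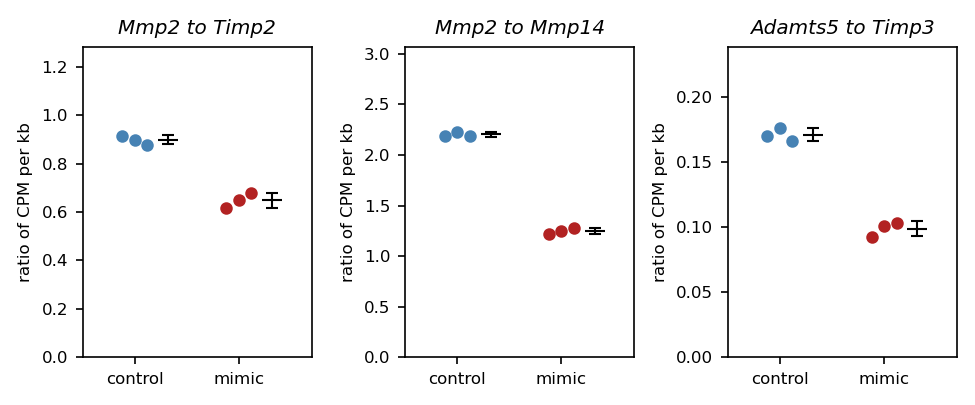
Ratio of CPM per kb within each sample for Mmp2 to Timp2, Mmp2 to Mmp14 and Adamts5 to Timp3, with control samples in blue, mimic samples in red and the mean with 1 SD beside each group; axes start at 0. The control and mimic means are 0.897 and 0.648, 2.21 and 1.25, and 0.170 and 0.0989, a direction that the choice of pairs fixed.

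Set against the site sequences above, the 7 members with the 7-base site had a median log2 fold change of -0.05, and the 39 without it -0.25. Of the 7, Adam22 and Adam23 fell, Adam9 and Timp3 rose, and Adam10, Mmp16 and Mmp17 did not pass. Over all genes tested with a 3′-UTR the medians were -0.07 with the site and 0.0071 without. For the 8-base site they were -0.168 and 0.0043, for the TGCCAAA form described next -0.078 and 0.0088. Another 7-base form, TGCCAAA (bases 2 to 7 followed by an A), was present in 6 members (13.0%, beside 14.3% of all genes), namely Adam12, Adam19, Adam22, Adamtsl1, Mmp16 and Mmp19. Adam22 and Mmp16 hold both forms as a single overlapping 8-base site. Of the 6 members called lower, Adam22 was the only one with either form. The 7-base site of the sequence that the methods print, TGTTTAC, occurred in 7 members (15.2%, beside 16.4% of all genes), of which Adam22 fell and Adam19, Adam9, Adamts6, Adamts9 and Timp3 rose. Over all genes tested with a 3′-UTR the medians were 0.035 with TGTTTAC and -0.0089 without.

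**Figure D5:**
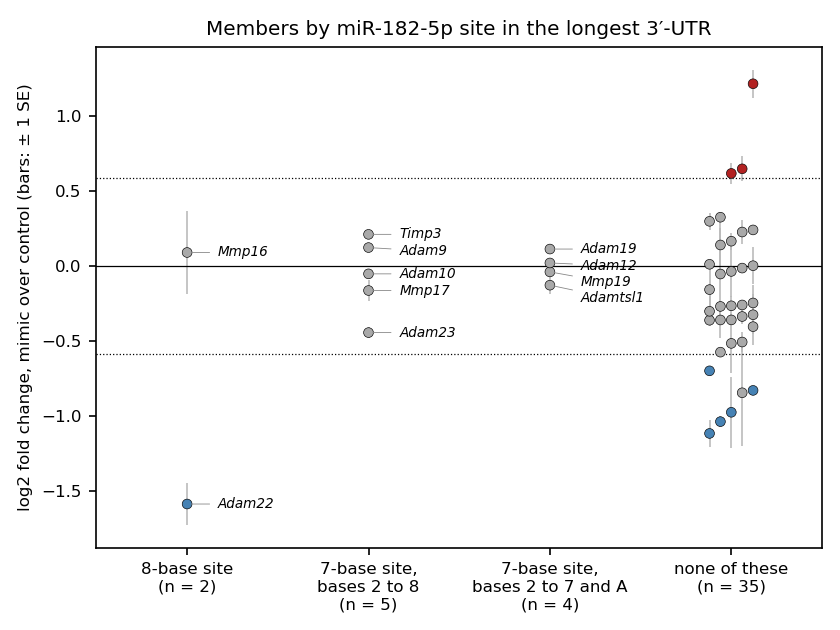
Log2 fold change (mimic over control) with 1 SE for the 46 members tested, split by the longest miR-182-5p site form in their 3′-UTR; dotted lines mark a 1.5-fold change and blue and red mark called members. Adam22, with an 8-base site, is the lowest point, while 5 of the 6 members called lower stand among the 35 with no site.

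Genes that activate, anchor, restrain or are cut by these proteases were listed as 49 partners, of which 40 were tested. Of these, 6 were called (15%, beside 7.45% of all genes), 4 higher and 2 lower. By adjusted p 30 changed (75.0%, beside 46.7% of all genes), 13 up (background 23.2%) and 17 down (background 23.5%). The partner that fell most was Reck, a membrane-anchored inhibitor of MMP2, MMP14, MMP9 and ADAM10. It had 48.0, 49.7 and 47.2 CPM with control and 16.4, 16.4 and 16.6 CPM with mimic, with little spread in either group (log2 fold change -1.55, SE 0.049, adjusted p = 1.32e-11). Its 3′-UTR holds the TGCCAAA form at base 749 of 1441, shown with the site in capitals because Reck is an inhibitor outside the TIMPs.
Reck, chr4:43944102-43944124, plus strand: ctactatataacTGCCAAAaagt
Thus of the inhibitors described, Reck, Timp2 and Timp4 fell while Timp3 and Timp1 rose. The fall of Timp4 rests on 13 to 37 reads per sample. Groups overlapped for Timp1, which did not pass in DESeq2 (adjusted p = 0.141). Reck was not the only partner with a site. Among the other tested partners, the TGCCAAA form was present in Hbegf (2 sites), which rose, and in Pcsk5 and Tspan14, which fell. Ereg and Tspan15 also held it and did not pass. The TTGCCAA site was present in Fbn1, among others.

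Fbn2, a fibrillin to which ADAMTS and ADAMTS-like proteins bind, rose from 94.8, 88.9 and 83.9 CPM to 149, 170 and 178 CPM (log2 fold change 0.89, SE 0.057, adjusted p = 2.06e-08). The related Fbn1 had a log2 fold change of -0.08 (SE 0.031, adjusted p = 0.0392), which did not pass when any library other than mimic sample 1 was left out (adjusted p from 0.0576 to 0.154) or with the replicate block (adjusted p = 0.118).

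Hbegf, a growth factor freed by ADAM sheddases, rose from 6.60, 6.13 and 5.56 CPM to 12.3, 9.15 and 11.2 CPM (log2 fold change 0.84, SE 0.11, adjusted p = 2.86e-05). Tll1, a procollagen C-proteinase, rose from 1.73, 1.19 and 1.49 CPM to 3.01, 2.81 and 2.30 CPM (log2 fold change 0.88, SE 0.18, adjusted p = 0.00114). Both genes separated the groups without overlap, as did 54.8% of all genes tested. Papln, related to the ADAMTS-like proteins, had at most 1.34 CPM and was called lower (log2 fold change -0.84, SE 0.27, adjusted p = 0.018). It did not pass without control sample 1 (adjusted p = 0.0768), control sample 2 (adjusted p = 0.0785) or mimic sample 3 (adjusted p = 0.0688), nor in DESeq2 (adjusted p = 0.0724).

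Among the partners with the highest CPM of their kind, Vcan, the versican cut by the proteoglycanases, fell from 595, 602 and 615 CPM to 433, 444 and 434 CPM (log2 fold change -0.47, SE 0.028, adjusted p = 1e-08). Cd44, a surface receptor that docks MMPs and is named here after its values were seen, rose from 104, 104 and 112 CPM to 166, 154 and 151 CPM (log2 fold change 0.56, SE 0.040, adjusted p = 6.51e-08). Both separated the groups and stayed short of 1.5-fold, except that Cd44 passed it without control sample 3 (0.594) or mimic sample 3 (0.589). Lrp1, the endocytic receptor that clears MMPs and TIMPs, fell slightly (log2 fold change -0.16, SE 0.034, adjusted p = 0.00148). The MMP inducer Bsg (-0.02, SE 0.029, adjusted p = 0.531) and the ADAM17 cofactor Rhbdf1 (0.01, SE 0.033, adjusted p = 0.802) did not pass. Csf1, a shed macrophage growth factor, had a log2 fold change of -0.13 (adjusted p = 0.0127), lost without control sample 3 (adjusted p = 0.067), mimic sample 2 (adjusted p = 0.0802) or mimic sample 3 (adjusted p = 0.0594). Furin, which activates pro-MMPs and pro-ADAMs, had a log2 fold change of 0.10 (adjusted p = 0.0318), lost without control samples 2 or 3 or mimic samples 2 or 3 (adjusted p from 0.0629 to 0.149), with the replicate block (0.0507) or with upper-quartile factors (0.054).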

How the data were processed

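Primary adipocyte RNA was sequenced in 3 control and 3 mimic samples as poly(A)-selected, stranded libraries. Per gene symbol, the authors deposited raw read counts. The submitters' processing notes name bcl2fastq, TopHat2, HTSeq and mm9, without roles or versions. Alignments that were not unique made up 39.06% to 39.79% of the counts listed, and ambiguous reads about 0.4%. Whether the tally of such alignments holds each read once is not given, so it need not be a share of reads. Both are kept as tallies apart from the genes and were left out, so near-identical genes can lose reads.

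Counts were tested with edgeR 4.0.16 in R 4.3.3 (TMM factors, filterByExpr at its minimum count of 10, then glmQLFit with glmQLFTest, two-sided) over 13117 genes with Benjamini-Hochberg adjustment. CPM values use TMM-scaled library sizes. The script was tested on simulated data. Counts of replicates differed beyond sampling noise in every pair, so none was taken as a duplicate. The study's text gives the cutoffs (1.5-fold, adjusted p under 0.05) and no test for the sequencing. Alternatives were DESeq2 1.42.0, limma-voom (limma 3.58.1), DESeq2 or upper-quartile factors within edgeR, 2 other filters, the replicate number as a block, and leaving out each sample. The site of the methods' miRNA sequence and the ratios were added after seeing the data.

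The members and lists were chosen with earlier results of these data known. Named were, by rule, called members, every TIMP, the 2 members of highest mean CPM in each role, and partners called or of highest mean CPM in their kind; in addition the values of all other tested members are given. The values of 1 called partner are not reported here. Exon lengths, overlaps and 3′-UTRs come from GENCODE M21 on GRCm38, matched by symbol for 83 of 83 members (22210 of 22609 symbols), since the files give no coordinates. This build differs from mm9, so gene coordinates are not printed, and those of the sites are positions on GRCm38. Figures were drawn with matplotlib 3.10.9, and tables made with pandas 2.3.3, scipy 1.17.1 and numpy 2.4.6, in Python 3.11.15.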

Additional observations from a re-analysis of the deposited data

How the results depend on the processing

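The number of members past both cutoffs was 9, and was 9 or 10 under the other factors, tools and the stricter filter, and 8 to 10 when any 1 sample was left out. Without a filter on low counts it was 12, the 3 added being Adamts19, Mmp12 and Mmp8, with 0 to 11 reads per sample. By adjusted p alone the 31 members were 28 to 33 over all these settings. The called members other than Adamts6 were called in all 6 fits that leave out a sample and in all 7 other settings, and Adamts6 in 3 of 6 and 7 of 7. Partners called lower went from 2 to 1 in DESeq2, and from 1 to 3 over the fits that leave out a sample. The median log2 fold change of the ADAM sheddases was 0.016, and 0.004 with upper-quartile factors. Members with a site numbered 7 for the 7-base and 2 for the 8-base form.

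Signs turned in 7 tested members and, among the partners recomputed (those named here), in Rhbdf1. With upper-quartile factors Adam15 was at -0.00037, Adamtsl2 at -0.0098 and Rhbdf1 at -0.00057, and in limma-voom Adam4 was at 0.014. Over the fits that leave out a sample, log2 fold changes ranged from -0.045 to 0.28 for Adam11, from -0.0069 to 0.032 for Adam15, from -0.18 to 0.15 for Adam1a, from -0.33 to 0.17 for Adam4, from -0.031 to 0.033 for Adamtsl2, from -0.024 to 0.0050 for Mmp14, from -0.043 to 0.25 for Mmp16 and from -0.00022 to 0.032 for Rhbdf1. The causes were not tested.

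Same-numbered samples did not deviate together (correlations of -0.18, -0.044 and -0.078), so the numbers were not taken as pairs. With the replicate block 9 members were called, and 30 passed the adjusted p. With 9 to 63 reads per sample, Timp4, Adam4, Adam5, Adam8, Adam11 and Mmp16 carry SEs of 0.20 to 0.36, and a 1.5-fold change can be missed there.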
